A study of Mus musculus with 2 samples.

Results

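Levels of 10 cell junction and adhesion genes were described in E14 cells, which are embryonic stem cells from 129/Ola mice kept as an established line. They are Cdh1, Cdh2, Epcam, Cldn3, Cldn4, Cldn6, Cldn7, Tjp1, Ocln and Vim, chosen by symbol, and each is present among the 50508 genes of the deposited table. Culture was on gelatin in medium containing LIF, the cytokine that sustains self-renewal, at 1000 U/ml together with 15% serum, at passages 15 to 18. One group was transfected with a scramble siRNA and the other with an siRNA against Mettl8, both with a lipid reagent, and total RNA was taken after 72 h. The table holds 2 columns, 1 per group, although the design text mentions triplicates, and no source used here says whether cultures were pooled. No value below therefore has a replicate error, and no test between the groups was made.

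Epithelial cells hold together through several kinds of junction. Adherens junctions are built on classical cadherins, of which CDH1 (E-cadherin) is typical of epithelia and CDH2 (N-cadherin) of mesenchymal and neural cells. Tight junctions lie at the apical border, where claudins and occludin seal the space between cells and TJP1 (ZO-1) ties them to actin. Mouse embryonic stem cells in LIF grow as compact colonies that rely on E-cadherin. When epithelial cells turn mesenchymal, SNAI and ZEB repressors bind E-box sequences at epithelial genes, and N-cadherin and the intermediate filament protein vimentin usually increase.

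Levels are given in FPKM, reads per kilobase of gene and per 1 M reads as the authors computed them, which makes genes of different length comparable. Reads per gene were rebuilt from the FPKM steps, with denominators of 28.5 M reads (M is 10 to the power 6) in the library labelled scramble siRNA and 27.8 M in the library labelled Mettl8 siRNA. Intervals in parentheses are exact 95% counting intervals, Poisson for a level and Clopper-Pearson for a ratio. They cover counting error only, since these reads carry no molecular identifiers and the spread between cultures was not measured. An interval of a ratio compares these 2 libraries and not the 2 treatments.

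The gene aimed at by the siRNA did not follow its label. Mettl8, a methyltransferase gene, was at 100.3 FPKM in the library labelled Mettl8 siRNA and at 0.67 FPKM in the library labelled scramble siRNA. Its level thus goes against the label, and wherever a gene is called higher or lower below, the library labelled Mettl8 siRNA is compared with the one labelled scramble siRNA. Were the 2 labels exchanged, every direction given here would turn, and whether they are was not tested. Stem cell markers were abundant in both libraries: Dppa5a, the highest of the 6 stem cell markers, was at 578 and 564 FPKM. Of the 6, 5 were lower and 1 higher in the library labelled Mettl8 siRNA. Counting intervals of the ratio lay below 1 for Sox2 (0.905, 0.870 to 0.940), Zfp42 (0.945, 0.909 to 0.981) and Esrrb (0.964, 0.935 to 0.994) and above 1 for Pou5f1 (1.05, 1.02 to 1.08). Among all 13243 genes with a mean of at least 1 FPKM, 5959 were lower and 7166 higher. The interval lay below 1 for 7.84% of these genes and above 1 for 11.6%. None of the 8 fibroblast, 7 primitive endoderm and 5 mesoderm markers reached a mean of 1 FPKM. Their summed levels were 1.21 and 1.09 FPKM for fibroblast, 1.03 and 1.44 for primitive endoderm, and 0.58 and 0.54 for mesoderm. The defining fibroblast genes Col1a2, Col3a1, Dcn, Lum and Postn were at 0.02 FPKM or less in both libraries. Of the 8 trophectoderm markers 3 reached 1 FPKM (Tfap2c, Krt8 and Krt18). The summed level of the 8 was 18.6 and 17.2 FPKM, mostly Tfap2c (11.99 and 10.7, a ratio of 0.896). Cdx2, Elf5, Hand1 and Gata3 were at 0.18 FPKM or less in both libraries, and Eomes was at 0.74 and 0.77. Of the 5 neuroectoderm markers Pax6 and Tubb3 did, with a summed level of 19.2 and 19.4 FPKM, nearly all of it Tubb3 (17.9 in both). Pax6 was at 1.06 and 1.27 FPKM, a ratio of 1.198 (1.04 to 1.38). Sox1 was at 0.17 and 0.19 FPKM, and Zic1 and Neurog2 were at 0.02 FPKM or less in both libraries. The part of stem cell, trophectoderm or neural transcripts in the differences below was not tested. In bulk RNA, fewer cells of a type and less RNA per cell cannot be told apart.

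The 10 genes fell into 2 ranges of level. Cdh1, Cldn4, Epcam, Vim, Tjp1 and Cldn6 had between 4.06 and 45.1 FPKM, above 1 FPKM in both libraries. Cdh2, Cldn7, Ocln and Cldn3 had between 0.49 and 0.90 FPKM, on 19 to 202 reads per library. The order by mean level was Cdh1, Cldn4, Epcam, Vim, Tjp1, Cldn6, Cdh2, Cldn7, Cldn3 and Ocln. Neighbours from Cdh1 to Cdh2 were separated by more than their counting intervals in both libraries, though Epcam and Vim stood in opposite order. Vim was the higher of this pair in the library labelled Mettl8 siRNA, and Epcam in the other. Cdh2 and Cldn7 overlapped in the library labelled scramble siRNA, and Cldn7, Cldn3 and Ocln overlapped as neighbours in both.

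**Figure D1:**
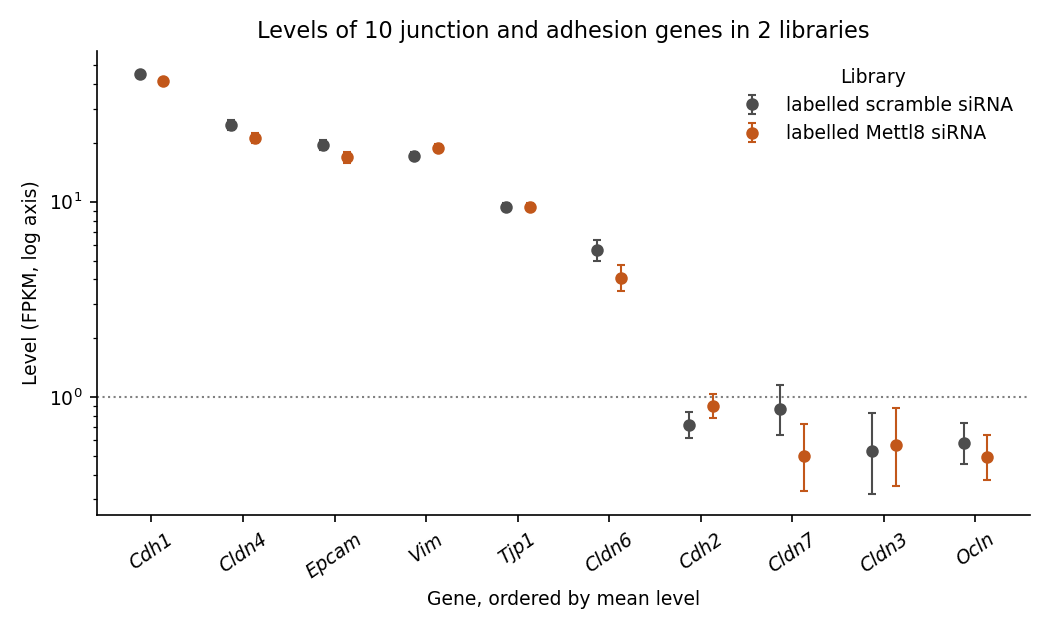
Level of each of the 10 genes (FPKM, log axis) in the library labelled scramble siRNA (grey) and the library labelled Mettl8 siRNA (orange); bars are exact 95% Poisson counting intervals and the dotted line marks 1 FPKM. Cdh1 is highest at 45.1 and 41.8 FPKM, and Cdh2, Cldn7, Cldn3 and Ocln lie below 1 FPKM in both libraries.

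Cadherin transcripts were mostly those of Cdh1. Cdh1 (chromosome 8, 106603351 to 106670246, plus strand, GRCm38) was at 45.1 FPKM (43.9 to 46.3) in the library labelled scramble siRNA and 41.8 FPKM (40.6 to 42.9) in the library labelled Mettl8 siRNA. The lower level in the second library amounts to a ratio of 0.926 (0.892 to 0.961) and rests on 5870 and 5314 reads. Cdh2 (chromosome 18, 16588877 to 16809246, minus strand) was at 0.72 FPKM (0.613 to 0.837) and 0.90 FPKM (0.780 to 1.03), the higher level being in the second library. Its ratio was 1.25 (1.01 to 1.55), on 165 and 202 reads. The level of Cdh1 was thus 62.6 times that of Cdh2 (53.7 to 73.7) in the library labelled scramble siRNA and 46.4 times (40.3 to 53.7) in the other. The nearest ends of these intervals were 53.74 and 53.66. Rounding leaves up to 1.15 reads of Cdh2 uncertain, so whether the intervals overlap is not settled. The difference of Cdh1 was -0.02 rather than -0.11 on the log2(FPKM + 1) scale when both libraries were rescaled to the same FPKM sum, which moved the median over all genes from 0.01 to 0.09.

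The promoters of the junction genes were searched for the E-box letters CACCTG or CAGGTG, which are each other's reverse complement, so that a search on both strands finds the same positions. RefSeq (GRCm38.p6) windows of 300 bases, from 250 bases before to 50 bases after a start, were given for 8 of the 10 genes, in 10 windows. No window was given for Cdh1 or Cdh2, so their promoters were not searched. A match was present in 7 of the 10 windows and in 6 of the 8 genes: Epcam, Cldn3, Cldn4, Cldn6, Cldn7 and Ocln. Vim and Tjp1 had none, which says only that these letters are not in those windows. Over all 32851 promoter windows 20.2% held a match, and over the 132 windows of genes in the 11 related lists (junction, polarity, filament and mesenchymal genes and their regulators) 28.8% did. Of the 11 distinct positions, 3 (1 each in Cldn6, Cldn7 and Ocln) lay across the end of an exon of the gene, with CAG as its last bases, so that the letters overlap those of a splice donor. The other 8 positions fell in the same 6 genes. A match is a description of the letters and not a measured binding site. Below, sequences are printed 5′ to 3′ along the gene with the E-box letters in capitals, and positions are counted from the RefSeq start, with -1 as the base before it. They are shown for the genes that hold a match, as whole upstream stretches where these lie outside annotated exons and the gene is abundant, and as 30 bases around a match elsewhere.

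**Figure D2:**
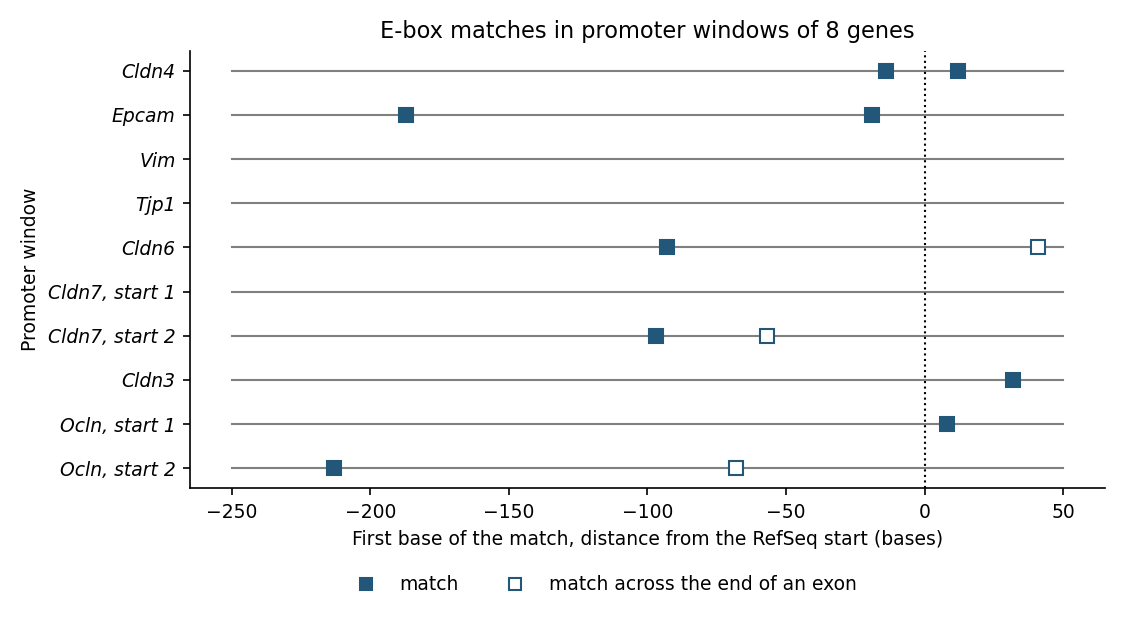
Positions of CACCTG or CAGGTG matches in the 10 RefSeq promoter windows of 8 genes, in order of the genes' mean level; the x axis is the distance of the first base of a match from the RefSeq start, in bases, and open squares lie across the end of an exon. Epcam and Cldn4 each hold 2 matches, and the windows of Vim, Tjp1 and the first start of Cldn7 hold none.

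Epcam, a homophilic adhesion protein that binds and stabilises claudins, was abundant. It lies on the plus strand of chromosome 17 (87635979 to 87651129). Its level was 19.5 FPKM (18.4 to 20.7) in the library labelled scramble siRNA and 16.9 FPKM (15.8 to 18.0) in the library labelled Mettl8 siRNA. These levels rest on 1133 and 957 reads, and their intervals do not overlap. The ratio was 0.864 (0.792 to 0.943). The 250 bases before its start, outside any annotated exon, hold E-box letters that begin at -187 and -19.
Epcam, chr17:87635729-87635978: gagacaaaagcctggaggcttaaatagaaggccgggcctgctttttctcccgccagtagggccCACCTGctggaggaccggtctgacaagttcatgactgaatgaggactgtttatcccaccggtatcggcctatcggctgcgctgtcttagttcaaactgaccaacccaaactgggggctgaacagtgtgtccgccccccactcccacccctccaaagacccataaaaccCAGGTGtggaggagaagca

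The 4 claudins differed strongly in level among themselves, by 46.6-fold between Cldn4 and Cldn3 in the library labelled scramble siRNA, and Cldn4 supplied most of their summed FPKM. Cldn4, a single-exon gene on chromosome 5 (134945119 to 134946934, minus strand), was at 24.7 FPKM (23.4 to 26.1) in the library labelled scramble siRNA and 21.2 FPKM (19.9 to 22.5) in the other. It held 77.8% and 80.5% of the summed FPKM of the 4 claudins. Its ratio was 0.856 (0.789 to 0.930), close to that of Epcam, and the level of Epcam was 0.790 and 0.797 times that of Cldn4 in the 2 libraries. The 250 bases before its start, printed along the minus strand, hold E-box letters at -14, and a further match begins at base 12 of the transcript.
Cldn4, chr5:134946935-134947184: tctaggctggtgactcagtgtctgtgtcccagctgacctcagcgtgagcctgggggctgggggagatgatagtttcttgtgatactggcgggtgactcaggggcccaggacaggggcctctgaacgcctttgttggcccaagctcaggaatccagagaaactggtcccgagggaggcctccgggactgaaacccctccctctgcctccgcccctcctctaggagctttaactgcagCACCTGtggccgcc

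Cldn6, a claudin of early embryonic epithelia, was the next highest and had the largest difference of the 6 genes above 1 FPKM. It lies on chromosome 17 (23679249 to 23682446, plus strand). Its level was 5.65 FPKM (4.96 to 6.40) in the library labelled scramble siRNA, against 4.06 FPKM (3.47 to 4.72) in the library labelled Mettl8 siRNA, on 242 and 170 reads. The intervals do not overlap, and the ratio was 0.719 (0.587 to 0.878). On the log2(FPKM + 1) scale, 0.281% of protein-coding genes with a mean of at least 1 FPKM had a lower difference than the -0.39 of Cldn6, and 0.452% had a larger one in either direction. Its E-box letters begin at -93 from the RefSeq start, inside an exon that GENCODE M21 begins further upstream.
Cldn6, chr17:23679260-23679289: gggaaacgcacgCAGGTGgctatcgccgca

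Cldn7 and Cldn3 were scarce. Cldn7 (chromosome 11, 69964779 to 69967885), the claudin best known as a partner of EPCAM, was at 0.87 FPKM (0.638 to 1.15) in the library labelled scramble siRNA and 0.50 FPKM (0.328 to 0.725) in the other, on 48 and 27 reads. Its ratio of 0.575 (0.345 to 0.941) was the lowest of the 10 genes, with an interval wide enough to hold the ratios of Epcam, Cldn4 and Cldn6. Cldn3 (chromosome 5, 134986214 to 134987472) was at 0.53 FPKM (0.319 to 0.828) and 0.57 FPKM (0.349 to 0.882), on 19 and 20 reads, and a difference was not detectable at this depth. Of its exon bases 3.18% are shared with the antisense gene Wbscr25, at 0.10 and 0.12 FPKM, and the strand setting of the counting is not given in the sources used here. No other gene of the 10 shares exon bases with another gene in GENCODE M21. The summed level of the 4 claudins was 26.3 FPKM in the library labelled Mettl8 siRNA against 31.8 FPKM in the other, a ratio of 0.828. The E-box letters of Cldn7 begin at -97 from the second of its RefSeq starts, and those of Cldn3 at base 32 of the transcript, both on the plus strand.
Cldn7, chr11:69965312-69965341: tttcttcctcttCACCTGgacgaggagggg
Cldn3, chr5:134986233-134986262: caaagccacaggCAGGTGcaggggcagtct

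The tight junction scaffold Tjp1 had nearly the same level in both libraries. It lies on chromosome 7 (65296165 to 65527781, minus strand). Its level was 9.40 FPKM (9.002 to 9.81) in the library labelled scramble siRNA and 9.44 FPKM (9.03 to 9.86) in the other. The ratio of 1.00 (0.944 to 1.07) rests on 2090 and 2051 reads. The sign of its difference turned with the scaling: 0.01 as reported, -0.01 with the median ratio of all genes set to 0, and 0.09 with the same FPKM sum. Ocln (chromosome 13, 100496507 to 100552718), the gene of the membrane protein occludin, was at 0.58 FPKM (0.454 to 0.736) and 0.49 FPKM (0.375 to 0.638), on 70 and 58 reads. Its intervals overlap and its ratio was 0.845 (0.588 to 1.22). The level of Tjp1 was 16.2 times that of Ocln (12.7 to 20.8) in the library labelled scramble siRNA and 19.3 times (14.7 to 25.3) in the other. Ocln, on the minus strand, holds E-box letters from base 8 of the transcript, and the Tjp1 window holds none.
Ocln, chr13:100552694-100552723: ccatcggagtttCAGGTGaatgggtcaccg

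Vim, the gene of the intermediate filament protein vimentin, was well expressed beside the epithelial genes. It lies on chromosome 2 (13573927 to 13582826, plus strand). Its level was 17.2 FPKM (16.5 to 17.9) in the library labelled scramble siRNA and 18.9 FPKM (18.2 to 19.7) in the library labelled Mettl8 siRNA, on 2326 and 2493 reads. Among the 6 genes above 1 FPKM it alone had a counting interval above a ratio of 1, at 1.096 (1.04 to 1.16). The level of Cdh1 was 2.62 times that of Vim (2.49 to 2.75) in the library labelled scramble siRNA and 2.21 times (2.11 to 2.32) in the other, and these intervals do not overlap.

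**Figure D3:**
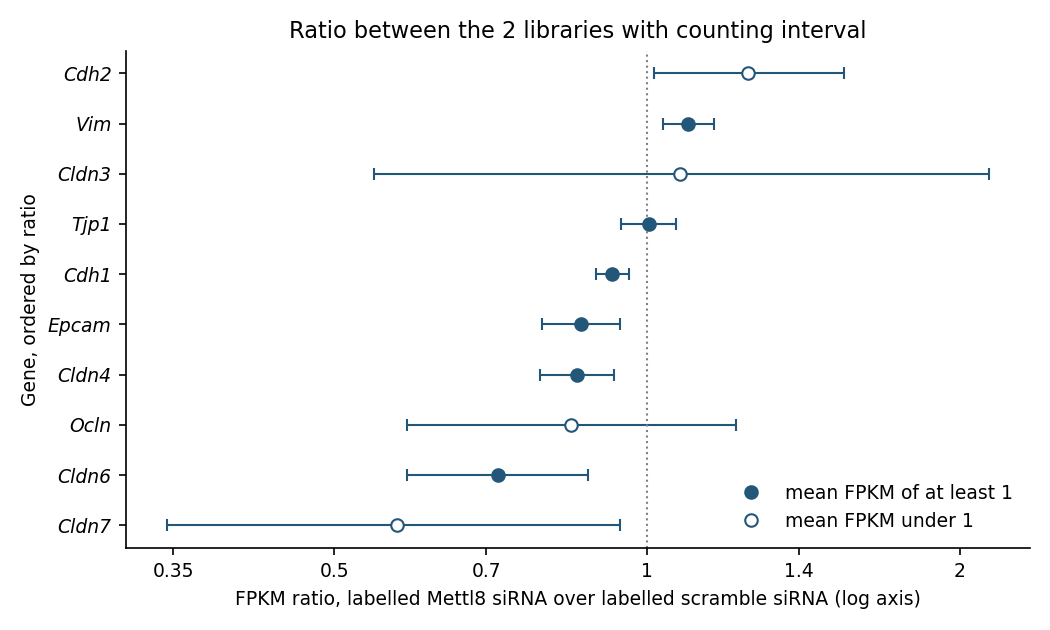
FPKM ratio of the library labelled Mettl8 siRNA over the library labelled scramble siRNA for each of the 10 genes (log axis), with exact 95% Clopper-Pearson counting intervals; open circles have a mean under 1 FPKM. Cldn7, Cldn6, Cldn4, Epcam and Cdh1 lie below 1 with their whole interval, Vim and Cdh2 above 1, and Ocln, Tjp1 and Cldn3 span 1.

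Read against all genes, the differences were small and mostly downward for the epithelial genes. Differences are in log2(FPKM + 1), a scale that understates the difference of low genes, and were counted over genes with a mean of at least 1 FPKM, 6 of the 10. Of these 6, Epcam (-0.20), Cldn4 (-0.21) and Cldn6 (-0.39) were at least 1.1-fold lower, against 13.7% of all 13243 genes and 9.3% of the 9965 protein-coding genes. None of the 6 was at least 1.1-fold higher (14.2% of all and 9.89% of protein-coding genes) or at least 1.5-fold apart (2.11% and 0.1%). Cdh1 (-0.11), Tjp1 (0.01) and Vim (0.13) made up the rest. The median difference of the 6 was -0.15, against 0.01 over all genes tested and 0.02 over those with a mean of at least 5 FPKM. The whole counting interval of the ratio lay below 1 for 4 of the 6 (7.84% of all and 8.75% of protein-coding genes) and above 1 for 1 (11.6% and 13.8%). Below the filter, the differences were -0.32 for Cldn7, -0.08 for Ocln, 0.04 for Cldn3 and 0.14 for Cdh2. When both libraries were rescaled to the same FPKM sum, 1 of the 6 (Cldn6) was at least 1.1-fold lower and 1 (Vim) higher. That rescaling moved the shares of all genes to 7.40% lower and 33.5% higher.

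The wider set of 11 lists of junction, polarity and cell state genes held 158 genes, of which 74 had a mean of at least 1 FPKM. On the log2(FPKM + 1) scale, 11 of these 74 were at least 1.1-fold lower, 0 were at least 1.1-fold higher and 0 were 1.5-fold apart, with a median of -0.05. Their counting interval lay below 1 for 13, beside 7.84% of all and 8.75% of protein-coding genes. It lay above 1 for 2, beside 11.6% and 13.8%. The share lower by 1.1-fold, 14.9%, stood beside 13.7% of all genes and 9.3% of protein-coding genes. None was higher by 1.1-fold, beside 14.2% of all and 9.89% of protein-coding genes. The count of 0 higher depends on the pseudocount: by the plain FPKM ratio, a rule added after seeing the data, 17 were at least 1.1-fold lower (18.3% of all and 14.2% of protein-coding genes) and 3, Grhl1, Nes and Cxadr, at least 1.1-fold higher (19.1% and 15%). The counting intervals of these 3 ratios span 1. In the lists below, counts of 1.1-fold are on the log2(FPKM + 1) scale unless the plain ratio is named. Rescaled to the same FPKM sum, the medians of the tight junction, adherens junction, cadherin, desmosome, polarity and epithelial regulator lists turned positive, at 0.003 to 0.043. These remained below the 0.09 that the median over all genes took under that rescaling.

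Tight junction genes beyond the 10 members included 15 above 1 FPKM, of which 3 were at least 1.1-fold lower and 0 higher. The shares were 13.7% and 14.2% of all genes, and 9.3% and 9.89% of protein-coding genes. The list median was -0.05, or 0.03 with the same FPKM sum. The 3 lower genes were Cgn, the gene of the junction plaque protein cingulin (2.47 and 1.99 FPKM), its relative Cgnl1 (2.24 and 1.91), and Tjp3, a relative of Tjp1 (1.35 and 1.04). Cxadr, the gene of the coxsackievirus and adenovirus receptor, was at 1.87 and 2.06 FPKM. The highest was Ybx3, a Y-box protein that associates with TJP1, at 49.3 and 50.3 FPKM. Of the 17 other claudins only Cldn12 passed 1 FPKM, at 7.32 and 7.70 FPKM.

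The abundant catenins, which link cadherins to actin, were less than 1.1-fold apart. Ctnna1 (alpha-catenin) was at 30.9 and 30.1 FPKM, Ctnnb1 (beta-catenin) at 10.9 and 10.3, and Jup (plakoglobin) at 10.7 and 10.8. Ctnnd1 (p120-catenin) was higher, at 26.6 and 28.3 FPKM, with a ratio of 1.07 (1.03 to 1.11). Of 12 adherens junction genes 0 were 1.1-fold lower or higher. The shares were 13.7% and 14.2% of all genes, and 9.3% and 9.89% of protein-coding genes. The largest difference was -0.11 for Afdn, the gene of afadin (8.01 and 7.37 FPKM), with a ratio of 0.920 (0.867 to 0.976). Ptprf was at 15.1 and 14.2 FPKM, a ratio of 0.940 (0.898 to 0.984). The counting interval lay below 1 for these 2 and above 1 for 1, Ctnnd1, beside 7.84% and 11.6% of all genes. Pvr, a nectin-like gene, was at 3.40 and 3.13 FPKM. Besides Cdh1, the classical cadherin Cdh3 (P-cadherin) was at 7.26 and 6.60 FPKM, with a ratio of 0.909 (0.826 to 1.00) whose interval just reaches 1. Cdh24 was at 1.48 and 1.46 FPKM. Of 5 desmosome genes above 1 FPKM 0 were 1.1-fold lower or higher, beside the same shares. By the plain ratio 18.3% of all and 14.2% of protein-coding genes were lower. Of the 5, 1 was, the desmosomal cadherin gene Dsg2, at 2.84 and 2.53 FPKM (0.891, 0.796 to 0.998). The others included Pkp4 at 11.81 and 11.97 FPKM, Pkp2 at 7.34 and 6.94, and Pkp3 at 1.68 and 1.63. Below the filter, Dsp, the gene of the desmosomal plaque protein desmoplakin, was at 0.68 and 0.44 FPKM on 186 and 118 reads, a ratio of 0.647 (0.511 to 0.822).

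Among 15 polarity genes, 2 (13.3%) were at least 1.1-fold lower, beside 13.7% of all genes and 9.3% of protein-coding genes. At least 1.1-fold higher were 0, beside 14.2% and 9.89%. Their median was -0.06, or 0.02 with the same FPKM sum. Crb3, an apical membrane protein gene, was at 2.94 and 2.21 FPKM, a ratio of 0.752 (0.570 to 0.983). Amotl1, an angiomotin gene, was at 2.04 and 1.70, a ratio of 0.833 (0.736 to 0.943). Pard3 was at 2.22 and 1.97 FPKM, a ratio of 0.887 (0.806 to 0.976). The counting interval lay below 1 for these 3 genes and above 1 for 1, beside 7.84% and 11.6% of all genes. The 1 above was Prkci, the atypical protein kinase C of the PAR complex, at 22.96 and 25.0 FPKM, with a ratio of 1.09 (1.04 to 1.14).

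Partners and proteases of EPCAM had the lowest median of the lists with at least 5 genes above 1 FPKM, leaving the 10 members aside: -0.13 over 7 genes, and -0.04 with the same FPKM sum. Of the 7, 3 were at least 1.1-fold lower and 0 higher, beside 13.7% and 14.2% of all genes and 9.3% and 9.89% of protein-coding genes. St14 encodes matriptase, a surface protease that can cleave EPCAM, and was at 5.88 and 4.73 FPKM, a ratio of 0.804 (0.740 to 0.875). Spint2, the gene of an inhibitor of such proteases, was at 10.3 and 9.08 FPKM, and the protease gene Prss8 at 2.66 and 2.14. Cd9, a tetraspanin gene, was at 42.6 and 38.9 FPKM. The counting intervals of Prss8 and of the other 3 genes span a ratio of 1: the inhibitor gene Spint1 was at 10.06 and 9.87 FPKM, and the sheddase genes Adam10 at 4.83 and 4.61 and Adam17 at 5.34 and 5.56.

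Of the repressors of epithelial genes, the SNAI, ZEB and TWIST genes were scarce in both libraries. SNAI and ZEB proteins are known to bind E-boxes of the kind printed above for Epcam, Ocln and the claudins, but no binding was measured here. Snai1 was at 0.59 and 0.42 FPKM, on 27 and 19 reads, Snai2 at 0.17 and 0.16, Zeb1 at 0.88 and 0.97, Zeb2 at 0.04 in both, and Twist1 at 0.72 and 0.62. The counting interval of the ratio spans 1 for each of these 5 genes. Snai3 (1.32 and 1.13 FPKM) and Tcf3, which encodes the E-box factor E2A (17.8 and 17.4), were the genes of this list above 1 FPKM. Factors that promote epithelial genes were mostly low too: Grhl2 was at 2.84 and 2.48 FPKM, with a ratio of 0.873 (0.760 to 1.00), Esrp1 at 3.04 and 2.83, Elf3 at 8.54 and 8.06, Grhl1 at 1.09 and 1.28, and Ovol2 at 0.55 and 0.51.

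Other filament and mesenchymal genes did not share the direction of Vim throughout. Of 6 other intermediate filament genes 0 were 1.1-fold lower or higher, with Lmnb1, a lamin gene, at 19.6 and 20.5 FPKM. The shares were 13.7% and 14.2% of all genes, and 9.3% and 9.89% of protein-coding genes. By the plain ratio Krt18 (3.11 and 2.80 FPKM) was 1.1-fold lower and Nes (1.06 and 1.21) higher, both with counting intervals that span 1. That ratio put 18.3% of all genes lower and 19.1% higher. Of 14 mesenchymal genes 3 passed 1 FPKM, and 2 of them were at least 1.1-fold lower, beside 13.7% of all and 9.3% of protein-coding genes. The fibronectin gene Fn1 was at 34.4 and 29.2 FPKM, a ratio of 0.849 (0.827 to 0.873), Mmp2 at 2.75 and 2.30, and Tagln at 1.18 and 1.03. Vim and Cdh2 were therefore higher and Fn1 lower in the same library. Vim and Cdh2 stayed higher, and the median of these 3 mesenchymal genes stayed below 0, under each of the 3 rescalings tried.

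**Figure D4:**
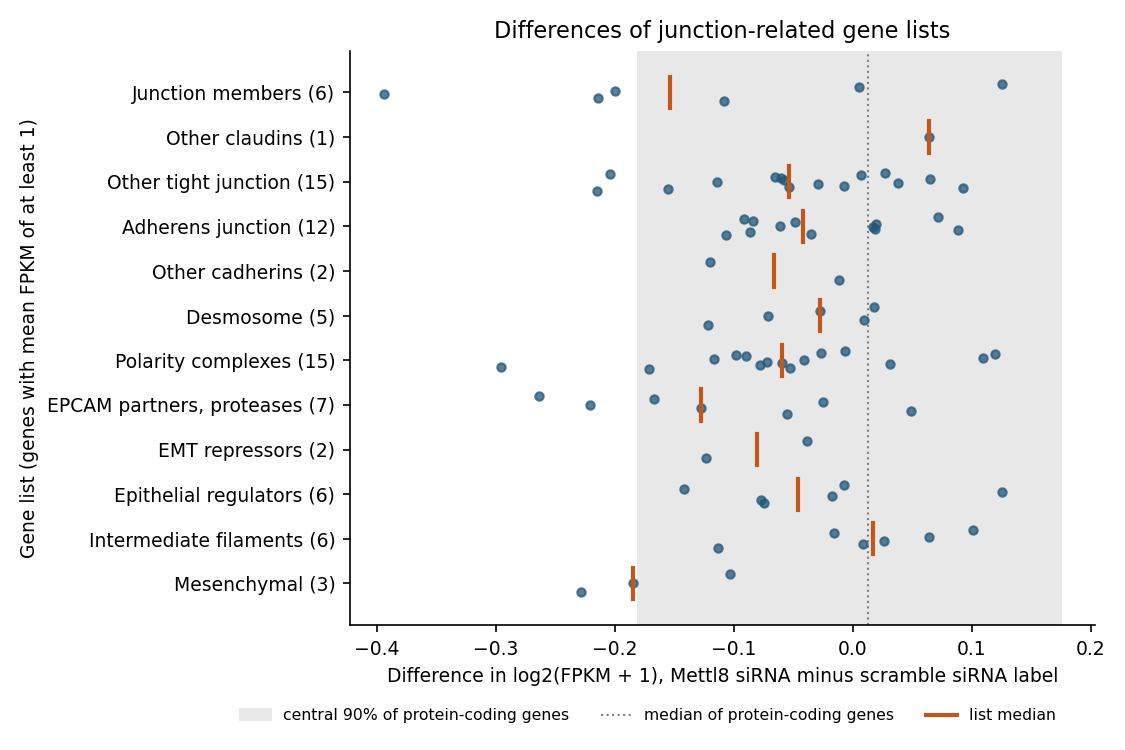
Differences in log2(FPKM + 1) between the 2 libraries for genes with a mean of at least 1 FPKM in each list (number of genes in parentheses); orange bars are list medians, the dotted line is the median and the grey band the central 90% of protein-coding genes. The median of the 6 junction genes is -0.15 and that of the 7 EPCAM partners -0.13, and Cldn6 at -0.39 lies furthest to the left.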

How the data were processed

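The submitters' processing notes list the aligner STAR 2.4.0i, the counter featureCounts 1.5.0-p1 and the mm10 build. How RNA was selected, the annotation, the strand setting and multiply mapped reads are not stated there. The authors deposited FPKM values with 2 decimals, and the deposited gene lengths in bases equal the exon union of GENCODE M21 for 8 of the 10 genes, all but Epcam and Cldn6. Reads were rebuilt as FPKM times length times the denominator. The denominator was the one that made values of short genes whole: 100% of 3120 and 100% of 3560 values (genes under 400 bases, below 30 reads) were whole to within rounding plus 0.005 reads. Rounding leaves up to 1.15 reads per junction gene uncertain. With 1 library per group no model could be fitted. Differences are log2(FPKM + 1), with a filter at a mean of 1 FPKM. The junction genes, lists and thresholds were chosen with earlier results of these data known. Besides these genes, those named are Mettl8, 12 regulators and catenins, the highest marker of each cell type, and from each list the highest gene and the 3 largest differences. Other stem cell markers, other trophectoderm and neuroectoderm markers and the low fibroblast genes were named outside this rule. So were Cxadr, Dsp, Ptprf, Pard3, Spint1, Adam10, Adam17 and the genes in the closing observations. Alternatives were another pseudocount, 3 rescalings, 2 filters, a 1.2-fold threshold and the FPKM ratio without a pseudocount. Scripts ran in Python 3.11.15 with scipy 1.17.1 and were tested on simulated data.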

Additional observations from a re-analysis of the deposited data

How the results depend on the processing

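No paired analysis was possible because each group has 1 library. For the same reason no library could be left out. The rescaling to the same sum of protein-coding genes and the ratio without a pseudocount were added after seeing the data. Of 150 values under alternatives, 131 stayed within a set range. For a single gene the range was its counting interval, and for a count it was 1.5 times. For a list median it was centred on that median and as wide as the median interval of the list's genes. This last range is wide and is not a counting interval of the median. The tight junction, cadherin, desmosome, polarity and epithelial regulator medians, which turned positive with the same FPKM sum, are thus among the 131. With the same FPKM sum, Cdh1 was at -0.017, Tjp1 at 0.090 and Vim at 0.21, and the adherens junction median was 0.043. Then 1 junction gene was at least 1.1-fold lower and 1 higher, beside 7.40% and 33.5% of all genes. The FPKM sum rests for 33.3% and 32.1% on the 57-base gene Gm23935, and with equal sums the median over all genes was 0.09 in place of 0.01. The same sum of protein-coding genes gave Cdh1 -0.12 and 3 junction genes lower, beside 15.1% of all genes. A pseudocount of 0.1 gave 0.29 for Cdh2 and -0.69 for Cldn7, since it shrinks low genes less. At 1.2-fold, 1 junction gene was lower, beside 5.01% of all genes. Without a filter, 1 (Cdh2) was at least 1.1-fold higher, beside 9.89% of all genes. For the 74 genes of the 11 lists, 11 lower and 0 higher as reported stood beside 13.7% and 14.2% of all genes. With the same FPKM sum they became 5 and 9, beside 7.40% and 33.5%. The plain ratio gave 17 and 3, beside 18.3% and 19.1%. Without a filter, 17 and 1 of 158 genes stood beside 7.89% and 9.89%. The smaller pseudocount gave 16 and 2, beside 17.8% and 18.6%. A mean of at least 5 FPKM left 3 lower, beside 10.1%, and 1.2-fold left 2, beside 5.01%. Depth limits Cldn3, Cldn7 and Ocln, which rest on at most 70 reads per library.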

Other observations

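Claudin genes that lie side by side were at unequal levels in 2 pairs. Cldn4 and Cldn3 are neighbours on chromosome 5, 39.3 kb apart. Annotated genes lying wholly between them number 0, a count that leaves out genes overlapping either, such as Wbscr25. The level of Cldn4 was 46.6 times that of Cldn3 (29.7 to 77.7) in the library labelled scramble siRNA. It was 37.1 times (23.9 to 60.9) in the library labelled Mettl8 siRNA. Cldn6 and Cldn9 on chromosome 17 lie 137 bases apart on opposite strands, and the level of Cldn6 was 9.58 times that of Cldn9 (6.31 to 15.3) and 7.38 times (4.71 to 12.1). Cldn9 was at 0.59 and 0.55 FPKM. These pairs were picked after their values were seen.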
